A study of Arabidopsis thaliana with 9 samples.

Results

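The comparison of the ALFIN-like quintuple mutant al24567 with the wild type Col-0 covered 6 of the 9 libraries of the series, 3 per genotype, and 23207 of the 32548 genes in the table. A gene was a member when its value was at least 1 in 3 or more of the 9 libraries of the series. No measured difference between the genotypes entered this choice, but a gene could pass through 1 genotype alone, ring1a1b included. The genes tested therefore include some near 0 in both Col-0 and al24567, such as VGD1, with a mean of 0.339 in al24567. Total RNA was taken from whole Arabidopsis seedlings 11 days old, raised on plates of Murashige and Skoog medium in long days. The mutant is homozygous for mutant alleles of AL2, AL4, AL5, AL6 and AL7 (al2-/- al4-/- al5-/- al6-/- al7-/-), so that AL1 and AL3 are the members of this family of 7 that it keeps. The kind of each allele is not given in the sources used here. The third genotype, ring1a1b (ring1a-/- ring1b-/-), lacks a pair of RING finger genes of Polycomb repressive complex 1; it entered the same model and is used below only to show where a change differed between the mutants. The labels do not say that replicates came from separate plantings, so every p-value measures only the spread between these samples, which may be technical.

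ALFIN-like proteins carry a plant homeodomain that binds histone H3 methylated at lysine 4, a mark at the start of active genes. They have been described as partners of Polycomb repressive complex 1 proteins in the switch of seed genes from an active to a repressed state at germination, and they are named after alfalfa Alfin1, a salt-responsive DNA-binding protein. The comparison asks which transcripts, gene families and processes of the seedling differ when most of the family is mutated.

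Transcripts of 4 of the 5 mutated genes were reduced, and those of AL5 were not. AL2 had values of 837, 923 and 892 in the Col-0 libraries and 157, 130 and 122 in the mutant (log2 fold change -2.69 ± 0.10). AL4 stood at 955, 824 and 883 against 261, 308 and 229 (-1.74 ± 0.10), AL6 at 480, 460 and 428 against 128, 119 and 172 (-1.72 ± 0.12), and AL7 at 635, 691 and 663 against 199, 191 and 130 (-1.95 ± 0.13). AL5 stood at 95.6, 84.4 and 96.0 in Col-0 and at 87.2, 89.1 and 88.8 in the libraries labelled al24567, and these overlapped (-0.06 ± 0.18, limma adjusted p = 0.844). AL1 (0.00 ± 0.09) and AL3 (-0.08 ± 0.07) were not called. The transcript level of AL5 therefore checks nothing about that allele.

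Values are the deposited read counts that had been adjusted to a common library size; they are not divided by gene length, so they are compared between libraries and not between genes. Log2 fold changes are differences of mean log2(value + 1), al24567 minus Col-0, with the SE of the limma model and n = 3 libraries per genotype, and a gene is called higher or lower at a Benjamini-Hochberg adjusted p below 0.05 over all 23207 genes. Libraries held 18258434 to 22435656 recovered reads, which put the limit from 3 counts at 0.134 to 0.164 CPM for a gene without reads, for counting error only. By this rule 36.3% of the genes tested were called, 17.9% higher and 18.4% lower in the mutant, with a median log2 fold change of -0.02; changes of 2-fold or more were called in 4.57% of genes upwards and in 3.68% downwards. These shares are the background for every count below, and they are not matched for level. The share called was 13.2% in the lowest quintile of mean values and 55.4% in the highest (28.5% higher, 26.8% lower). Lists of mostly high or mostly low genes were not set against genes of like level. In 47.7% of all genes the 3 mutant libraries did not overlap the 3 Col-0 libraries, so a lack of overlap in a single gene is common here. Ribosomal RNA genes took 0.0141% to 0.0156% of the reads in Col-0 and 0.0226% to 0.0297% in al24567. Sequencing of whole seedlings cannot tell fewer cells of a type from less RNA per cell.

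Of 95 families and processes drawn up from annotated names, 56 had a share of called members away from this background by the limits given with the processing, and 39 did not. The lists were chosen with earlier results of these data known, so these counts do not measure how widely changes spread over families. Lower transcripts prevailed among the nuclear genes of plastid transcription and translation, among kinesins, tubulins and histones, among auxin-responsive families, and among trehalose and core hypoxia genes. Higher transcripts prevailed among phenylpropanoid, suberin, tryptophan and triterpene genes, among glutathione S-transferases, glycosyltransferases and cytochrome P450 enzymes, among proteasome subunits, chaperones of the endoplasmic reticulum and mitochondrial stress genes, and among several families of cell surface receptors. Intracellular immune receptors went the other way, with more lower than higher calls.

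**Figure D1:**
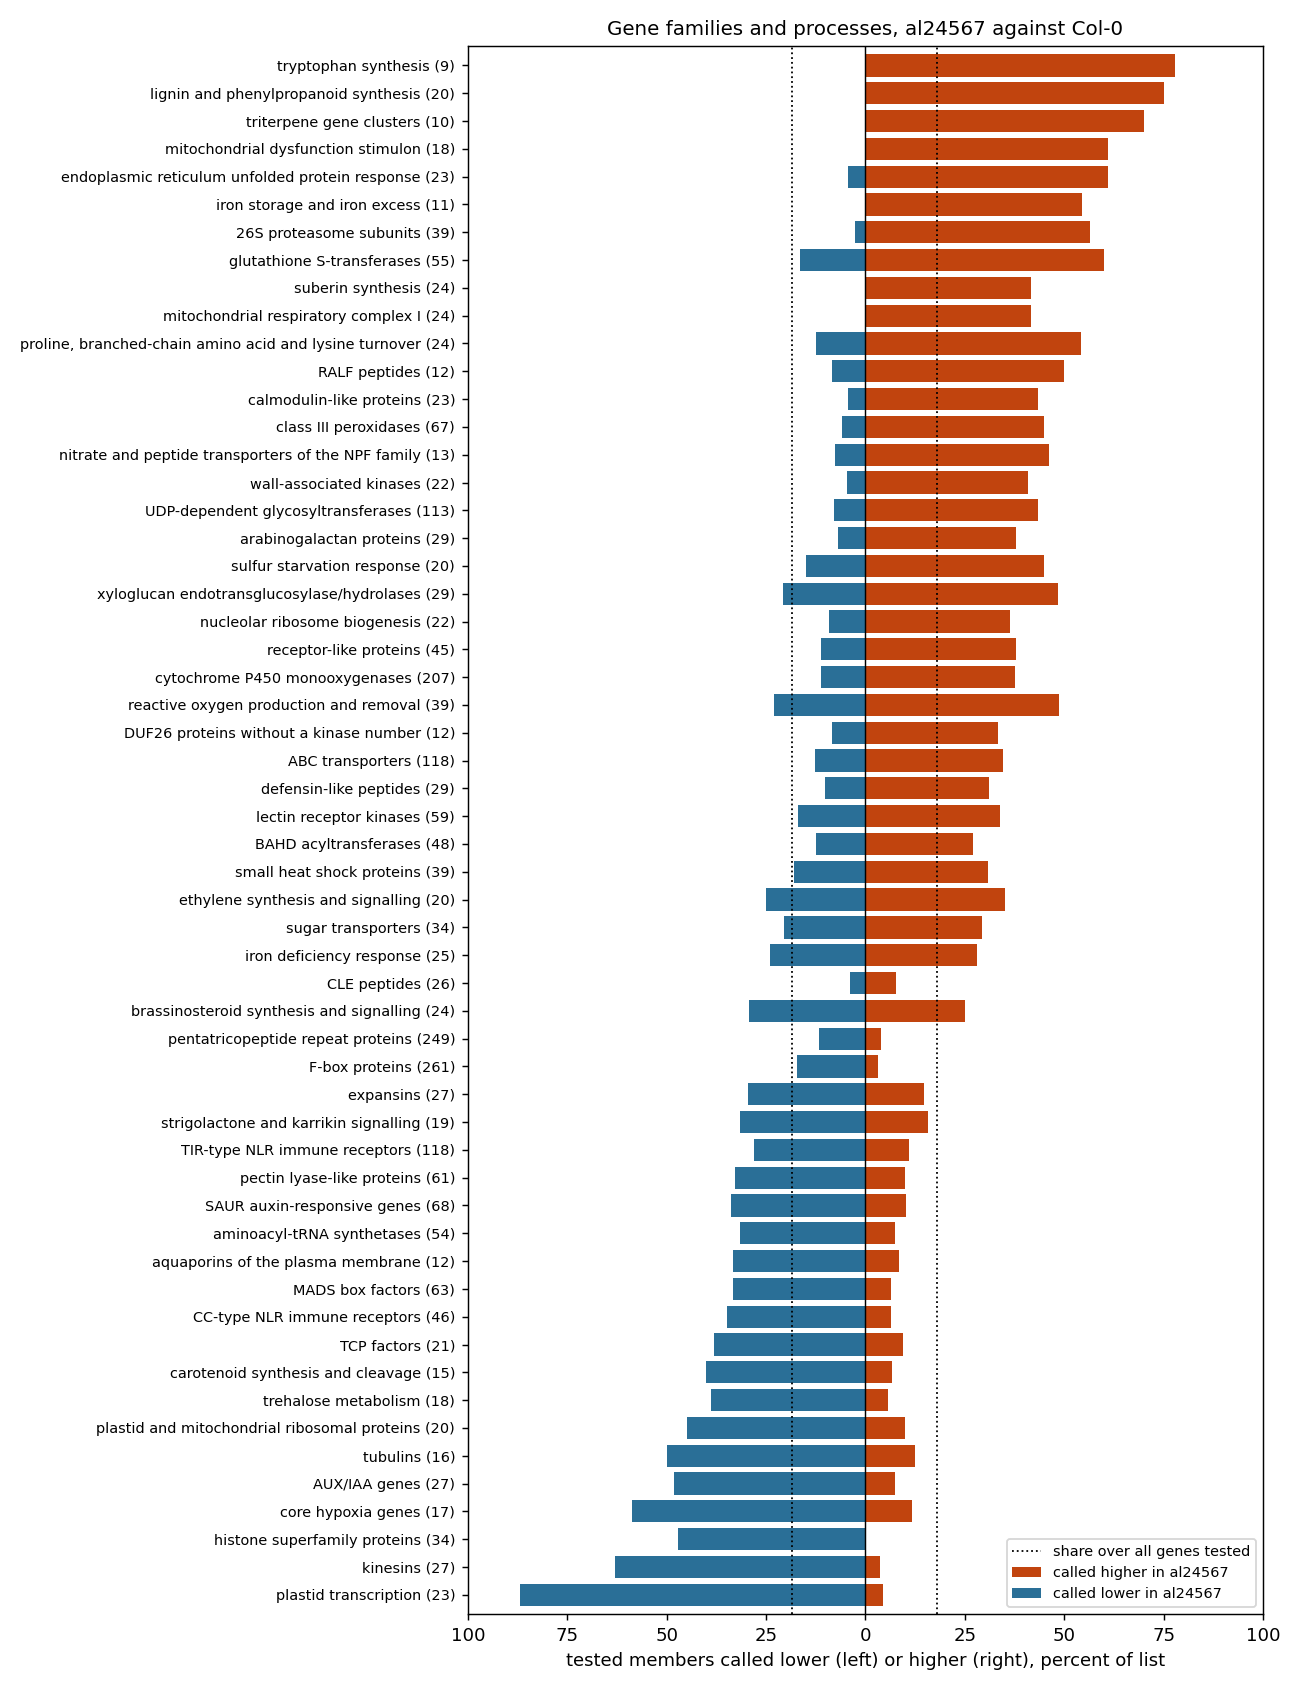
Share of tested members called higher (right, percent) and lower (left, percent) in al24567 for the 56 lists described, with the number tested in parentheses and dotted lines at the shares over all genes, 17.9% and 18.4%. Plastid transcription and kinesins reach furthest to the lower side, and tryptophan, lignin and triterpene synthesis furthest to the higher side.

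The plastid genome is read by a bacterial-type polymerase whose core is encoded in the plastid, while its sigma factors and many associated proteins are encoded in the nucleus. Of 23 tested nuclear genes for sigma factors and polymerase-associated proteins, 20 fell, 1 rose and 2 missed the threshold, and the median of the 23 log2 fold changes was -0.52. PTAC12, also known as HEMERA, a polymerase-associated protein needed for chloroplast formation, had values of 989, 878 and 896 in Col-0 and 462, 540 and 433 in al24567. It fell by 0.95 ± 0.09 on the log2 scale (adjusted p = 1.26e-07, limma), and its level in ring1a1b was 764 ± 20.8 (ring1a1b minus al24567 0.68 ± 0.09). The sigma factor gene SIGC went from 1270, 1300 and 1184 to 814, 797 and 821 (-0.62 ± 0.07), with no overlap. SIGF (-0.57 ± 0.06), SIG2 (-0.56) and SIG4 (-0.83) also fell. All 8 tested genes named as plastid transcriptionally active fell, from PTAC2 (-0.29) to PTAC12. None of the 23 reached a 2-fold change: the falls were small and shared. The member called higher was GUN1, a plastid-to-nucleus signalling gene, at 5847, 5754 and 5536 against 6749, 6276 and 6437 (0.18 ± 0.06, adjusted p = 0.0296), which lost its call under 5 alternatives besides the stricter threshold.

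Genes of organelle translation moved the same way. Of 20 tested genes annotated as plastid or mitochondrial ribosomal proteins, 9 fell and 2 rose. PSRP2, a plastid ribosomal protein gene, went from 5304, 4645 and 5221 to 2920, 2916 and 3025 (-0.77 ± 0.07, limma adjusted p = 5.23e-08), and PRPL11 from 4552, 4478 and 4440 to 2610, 2884 and 2904 (-0.68 ± 0.06). The mitochondrial MRPL11 rose by 0.45 ± 0.09. Of 54 genes annotated as aminoacyl-tRNA synthetases, enzymes that charge tRNAs in the cytosol and in organelles, 17 fell and 4 rose. EMB2369 went from 1371, 1332 and 1457 to 826, 860 and 752 (-0.77 ± 0.08). In the longest quintile of genes 10 of 23 fell and none rose. Of the other 31, 7 fell and 4 rose, and the part of gene length was not tested. The list follows annotated names. Its rises include AT4G23620, named for an anti-codon-binding domain, and AT3G17800, a putative alanine-tRNA ligase (DUF760). Of 15 genes of carotenoid synthesis and cleavage, 6 fell and 1 rose, with a median at 0.00 that turned to -0.04 with library totals made equal. NPQ1, the violaxanthin de-epoxidase that allows excess light to be dissipated as heat, went from 1507, 1316 and 1336 to 839, 684 and 697 (-0.91 ± 0.08). The 287 tested ribosomal protein genes not annotated as organellar had 30 higher and 49 lower calls (median -0.02). The split rests on annotated names alone, so organellar genes with a general name would be counted in this larger group. Of 249 pentatricopeptide repeat genes, most of which bind organelle transcripts, 10 rose and 29 fell, a share of calls well under the background; AT5G04810 went from 2187, 2304 and 2321 to 1456, 1316 and 1309 (-0.74 ± 0.07). Of the 7 mesophyll markers 1 was called lower and none higher, and their summed value was 917154 to 1045079 in Col-0 and 787438 to 1010516 in al24567, which overlapped.

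Kinesins are motor proteins that move on microtubules, and many act in the spindle and in the phragmoplast that builds the new wall. Of 27 tested, 17 fell, 1 rose and 9 were not called (median -0.50). ZWI, a calmodulin-binding kinesin that shapes trichomes, had values of 1056, 1066 and 1042 in Col-0 and 666, 759 and 623 in the mutant (-0.63 ± 0.08, limma adjusted p = 9.32e-06), against 1003 ± 82.3 in ring1a1b. The phragmoplast-orienting kinesin genes POK1 (-0.54) and POK2 (-0.77) also fell. ATK4 was the member called higher (0.56 ± 0.20, adjusted p = 0.0319), a call lost under 4 alternatives besides the stricter threshold. Kinesin genes are long: 22 of the 27 belonged to the longest quintile of genes, and 14 of these 22 fell, while 3 of the other 5 fell. Across all genes of that quintile 28.2% were lower and 14.5% higher, so gene length moved with this list; its part in the result was not tested.

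Of 34 tested core and linker histone genes other than H2A, which are short and outside that quintile without exception, 16 fell and none rose at the threshold (median -0.28). The linker histone gene HIS1-3, which responds to drought, went from 285, 335 and 334 to 67.1, 58.5 and 76.3 (-2.23 ± 0.11, limma adjusted p = 6.56e-11). It stood at 1635, 1609 and 1738 in ring1a1b, above both other genotypes. HTB2, an H2B gene, went from 1268, 1171 and 1400 to 763, 920 and 735 (-0.67 ± 0.09). Histone genes include near-identical copies, whose reads could be exchanged. Of 16 tubulin genes, 8 fell and 2 rose, all by under 2-fold. TUB8 went from 1263, 1140 and 1250 to 880, 720 and 821 (-0.60 ± 0.09), whereas TUB1 rose from 230, 242 and 221 to 455, 373 and 366 (0.78 ± 0.11); the other call, TUA1, had overlapping libraries and was lost under 6 alternatives besides the stricter threshold.

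**Figure D2:**
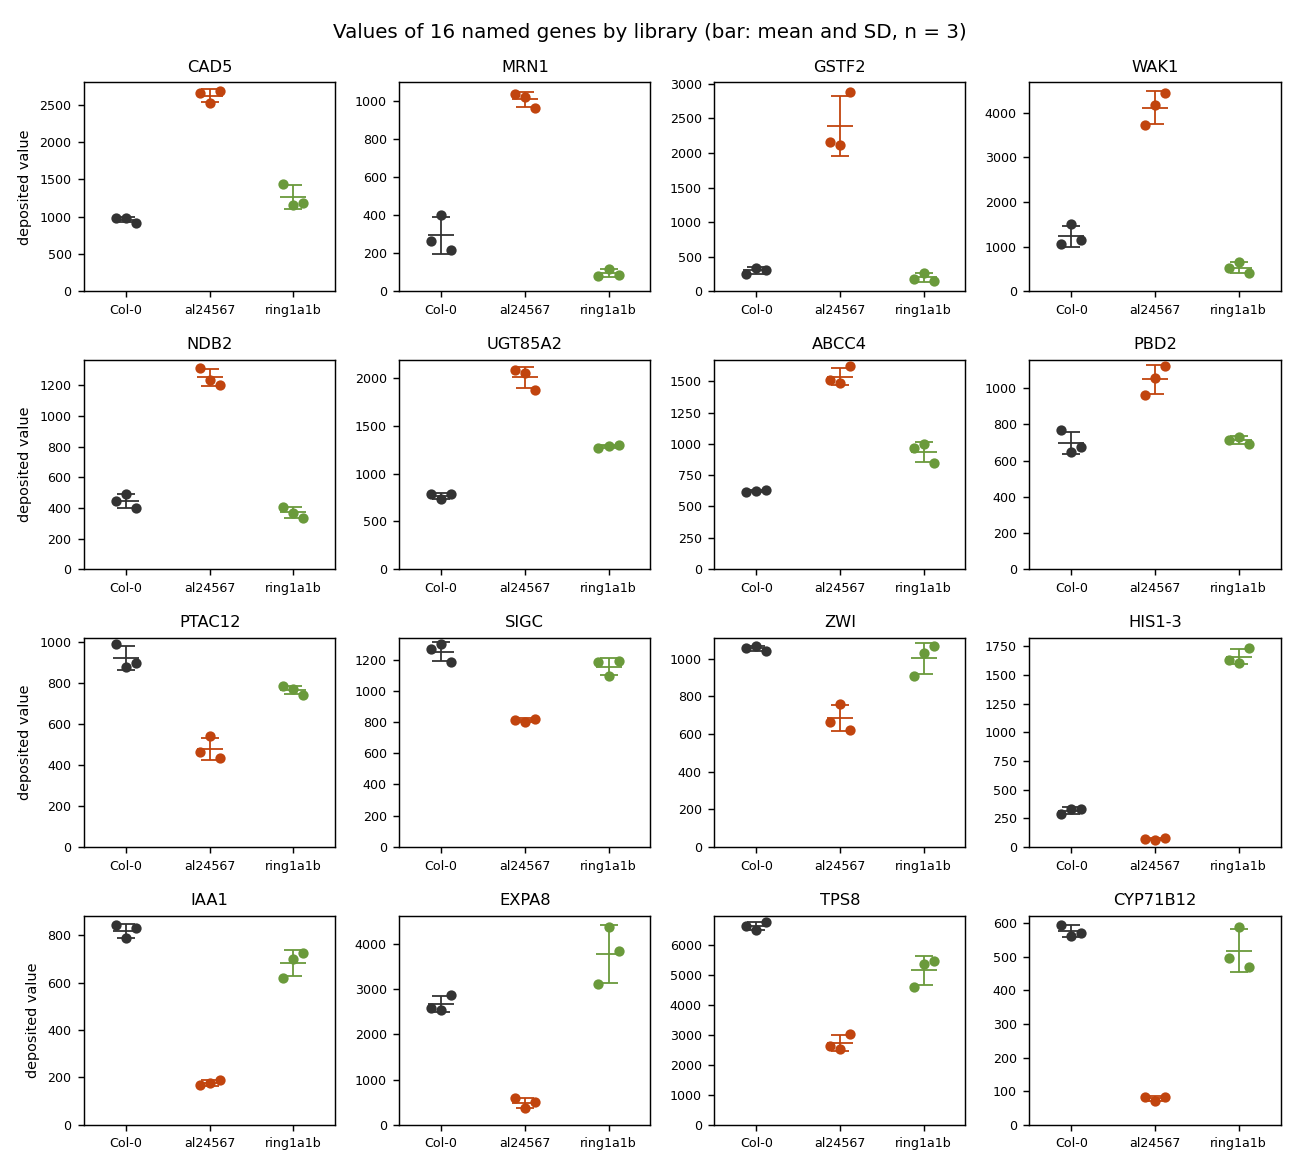
Deposited values (vertical axis from 0) of 16 named genes in each library of Col-0, al24567 and ring1a1b; bars are mean and SD, n = 3. In each of the 16 the al24567 libraries lie clear of the Col-0 libraries, as for PTAC12 (433 to 540 against 878 to 989) and CAD5 (2525 to 2690 against 919 to 986). The 16 were picked from called genes, a choice that favours such a gap. Over all genes tested 47.7% had no overlap.

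Auxin acts by degrading AUX/IAA repressors, whose genes are themselves induced by auxin, and SAUR genes are rapid auxin-responsive growth genes. Of 27 AUX/IAA genes, 13 fell and 2 rose (median -0.49), and of 68 SAUR genes 23 fell and 7 rose (median -0.41), 21 of the 23 by at least 2-fold. IAA1 had values of 841, 786 and 828 in Col-0 and 166, 176 and 191 in al24567 (-2.20 ± 0.09, limma adjusted p = 8.74e-12), and 681 ± 54.7 in ring1a1b. IAA2 went from 1702, 1667 and 1788 to 438, 446 and 463 (-1.93 ± 0.07). SAUR15 went from 74.0, 103 and 91.7 to 17.0, 9.67 and 15.5 (-2.61 ± 0.27). Other members went up: IAA28 by 0.52 ± 0.12 and AT5G50760, a SAUR gene, by 1.26 ± 0.15. Copies of SAUR genes in tandem can exchange reads.

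Families that loosen or cut the wall split by member. Of 27 expansin genes, which loosen walls during growth, 8 fell and 4 rose. EXPA8 went from 2572, 2543 and 2863 to 588, 370 and 505 (-2.47 ± 0.13) and EXPA1 from 7035, 5901 and 6754 to 2048, 1760 and 2024 (-1.75 ± 0.10, limma adjusted p = 2.26e-10). EXPA9 (1.17 ± 0.14) and the root hair expansin gene EXPA18 (0.89 ± 0.14) rose. Of 29 xyloglucan endotransglucosylase/hydrolase genes, 14 rose and 6 fell: XTH7 went from 2951, 2712 and 2666 to 5776, 5071 and 6525 (1.05 ± 0.09), and the touch-induced TCH4 from 1288, 1364 and 1543 to 389, 549 and 624 (-1.45 ± 0.14). XTH7 did not differ at the threshold between the mutants (ring1a1b minus al24567 -0.21 ± 0.09, adjusted p = 0.0861). Of 61 pectin lyase-like genes, 20 fell and 6 rose; AT5G14650 went from 325, 283 and 240 to 39.1, 47.7 and 53.0 (-2.57 ± 0.17). Of 29 arabinogalactan protein genes, 11 rose and 2 fell, AGP5 from 27.1, 48.2 and 28.8 to 123, 160 and 187 (2.17 ± 0.29). Among brassinosteroid genes the counts were near balance (6 of 24 higher, 7 lower), and the 3 growth-promoting target genes BEE1 (-1.19 ± 0.24), BEE2 (-1.10 ± 0.08) and BEE3 (-0.72 ± 0.12) were all lower, as was the receptor gene BRI1 (-0.39 ± 0.06). The synthesis genes ROT3 (382, 436 and 391 against 606, 556 and 528, 0.48 ± 0.09) and DWF5 (0.31 ± 0.07) rose.

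Trehalose 6-phosphate is a sugar signal, and most of the class II proteins of its synthase family are thought to act as regulators. Of 18 trehalose genes, 7 fell and 1 rose. TPS8 went from 6637, 6509 and 6759 to 2621, 2534 and 3039 (-1.28 ± 0.08) and TPS11 from 3212, 3144 and 3564 to 1305, 1159 and 1284 (-1.40 ± 0.08, limma adjusted p = 5.26e-10), whereas TPS5 rose from 953, 1049 and 860 to 1595, 1619 and 1848 (0.82 ± 0.09). Of 34 sugar transporter genes 10 rose and 7 fell. The monosaccharide carrier gene STP1 went from 2984, 3251 and 3392 to 1458, 1352 and 1439 (-1.18 ± 0.10), and the polyol transporter gene PMT6 from 616, 668 and 741 to 2500, 2437 and 2694 (1.91 ± 0.09). The sucrose exporter genes SWEET11 (0.89 ± 0.08) and SWEET12 (1.29 ± 0.14) rose.

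Of 17 tested core hypoxia genes, which include the enzymes of alcoholic fermentation, 10 fell and 2 rose (median -0.56). SUS4, a sucrose synthase gene, had values of 1503, 1284 and 1275 in Col-0, 426, 858 and 638 in al24567 and 1561, 1240 and 1649 in ring1a1b (al24567 against Col-0 -1.13 ± 0.17, limma adjusted p = 2.77e-05). The pyruvate decarboxylase genes divided: AT4G33070 went from 1550, 1334 and 1375 to 498, 880 and 758 (-1.03 ± 0.14), and PDC2 rose from 455, 455 and 471 to 654, 602 and 711 (0.51 ± 0.09). In SUS4 and AT4G33070 replicate 1 of the mutant was the lowest library. Of 24 genes listed under proline, branched-chain amino acid and lysine turnover, 13 rose and 3 fell. This list is wider than its name and also holds GDH2 and ASN1, genes of glutamate and asparagine metabolism. GDH2, a glutamate dehydrogenase gene, went from 1804, 1912 and 2020 to 3343, 3588 and 3351 (0.84 ± 0.07), while the asparagine synthase gene ASN1, which is induced by low sugar, went from 2069, 3428 and 2740 to 622, 859 and 1006 (-1.72 ± 0.20). P5CS1, of proline synthesis, went from 27899, 30253 and 26276 to 15927, 12024 and 15217 (-0.98 ± 0.10).

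The phenylpropanoid pathway turns phenylalanine into lignin monomers and other phenolics. Of 20 tested genes, 15 rose and none was called lower (median 0.60). PAL1, the entry enzyme gene, went from 4771, 4685 and 4555 to 8609, 8017 and 8836 (0.86 ± 0.06), C4H, the following hydroxylase, from 6184, 6246 and 6041 to 11502, 10077 and 12209 (0.87 ± 0.07), and 4CL2, a coenzyme A ligase gene, from 464, 516 and 494 to 1158, 1147 and 1174 (1.24 ± 0.08). CAD5, of the last reduction step to monolignols, rose from 982, 986 and 919 to 2662, 2525 and 2690 (1.45 ± 0.08, limma adjusted p = 2.02e-10), and all 3 libraries of ring1a1b lay between (1446, 1156 and 1189). The laccase genes LAC11 (0.06), LAC17 (-0.34) and IRX12 (-0.04), whose proteins polymerise lignin in the wall, were not called.

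Suberin is a lipid and phenolic barrier in root endodermis and wounded tissue. Of 24 tested genes, 10 rose and none was called lower (median 0.51). ABCG6, a transporter gene of suberin formation, went from 182, 256 and 247 to 809, 625 and 754 (1.68 ± 0.13), RWP1, a feruloyl transferase gene, from 572, 601 and 571 to 1235, 1059 and 1041 (0.93 ± 0.08), and GPAT7 from 29.1, 28.4 and 22.0 to 76.2, 61.7 and 71.0 (1.37 ± 0.27, limma adjusted p = 0.00058). ABCG6 stood at 163 ± 5.47 in ring1a1b (ring1a1b minus al24567 -2.15 ± 0.13). The Casparian strip genes CASP1 (0.22) and CASP2 (-0.13) were not called. Of 67 class III peroxidase genes, which cross-link phenolics and make or use hydrogen peroxide, 30 rose and 4 fell; AT5G64120 went from 427, 541 and 744 to 2945, 3497 and 3795 (2.61 ± 0.16). DOX1, placed here by its annotated name though it is a fatty acid dioxygenase, went from 1984, 2643 and 2091 to 7812, 7885 and 8529 (1.86 ± 0.09).

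Root markers were higher beside these lists. Of the 9 root markers found, all above 0 and EXPA18 among them, 6 rose and none was called lower, and their summed value was 2592 to 2842 in Col-0 and 3819 to 4290 in al24567. PRP3, a root hair wall protein gene, rose by 1.09 ± 0.14 and the endodermal regulator gene SCR by 0.41 ± 0.08, while MRH1 (0.08 ± 0.10) and CASP1 were not called. The part of root tissue in the suberin, peroxidase, arabinogalactan protein and triterpene lists was not tested. Guard cell markers summed to 1115 to 1149 in Col-0 and 958 to 1195 in al24567, which overlapped. Flower markers summed to 29.7 to 45.1 in Col-0 and 84.0 to 129 in al24567, with 3 of 6 tested higher and AP1 without reads. Pollen markers summed to 35.4 to 40.4 and 16.0 to 27.1, with 2 of 4 tested lower and sks14 and PTEN1 without reads. Seed markers summed to 6.07 to 11.5 and 8.16 to 47.1, with SESA1 and SESA3 without reads and 1 of 7 tested higher.

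Arabidopsis keeps the genes of several triterpenes in clusters on chromosomes 4 and 5 that are transcribed mainly in roots. Of the 10 genes of the thalianol, marneral, arabidiol and baruol clusters, 7 rose, 3 were not called and the median was 1.0. In the marneral cluster (TAIR10.1, chromosome 5), the synthase gene MRN1 went from 265, 399 and 215 to 1038, 1021 and 960 (1.82 ± 0.18, limma adjusted p = 2.14e-07), CYP705A12 from 62.3, 68.3 and 44.7 to 247, 265 and 246 (2.12 ± 0.22) and CYP71A16 from 146, 190 and 167 to 372, 311 and 373 (1.07 ± 0.20). MRN1 was lowest in ring1a1b, at 79.4, 118 and 85.6. In the thalianol cluster THAS1 rose from 302, 410 and 380 to 783, 679 and 617 (0.93 ± 0.23), and CYP705A5 (1.19 ± 0.22) and CYP708A2 (0.86 ± 0.23) rose too; the calls of THAS1 and CYP708A2 were lost without a trend in the prior variance, and that of CYP708A2 also without Col-0 replicate 1 (adjusted p = 0.0572, limma). The acyltransferase gene AT5G47980 of that cluster (0.67 ± 0.30, limma adjusted p = 0.0904) was not called, but it was without al24567 replicate 2 (limma adjusted p = 0.0173). On chromosome 4, CYP705A1 went from 84.2, 81.2 and 84.8 to 276, 249 and 205 (1.52 ± 0.16). Its neighbour PEN1, the arabidiol synthase gene, was not called (0.40 ± 0.16, limma adjusted p = 0.0631), nor was BARS1 (0.41 ± 0.59). PEN1 was called by edgeR (adjusted p = 0.0376) and by DESeq2 (0.0466). In limma it was called with the replicate block (adjusted p = 0.0428) and without al24567 replicate 3 (0.021). The CYP705 family as a whole had 13 of 22 members higher and 2 lower.

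Of the 9 genes of tryptophan synthesis, the source of auxin and of indole defence compounds, 7 rose. ASA1, the first committed enzyme gene, went from 664, 656 and 663 to 1035, 1266 and 1229 (0.83 ± 0.08), ASB1 from 312, 334 and 345 to 490, 611 and 595 (0.77 ± 0.11) and TSB1 from 2068, 2004 and 2092 to 2705, 2987 and 3061 (0.50 ± 0.07, limma adjusted p = 1.94e-05). TSB2 (0.49 ± 0.11), TSBtype2 (0.45 ± 0.09), PAI1 (0.55 ± 0.14) and PAI2 (0.59 ± 0.20) rose as well; PAI2 lost its call under 7 alternatives besides the stricter threshold, and the PAI genes are near-identical copies. PAI3 (-0.20 ± 0.16) and MYB34 (0.09 ± 0.10), a regulator of the pathway, had overlapping libraries.

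**Figure D3:**
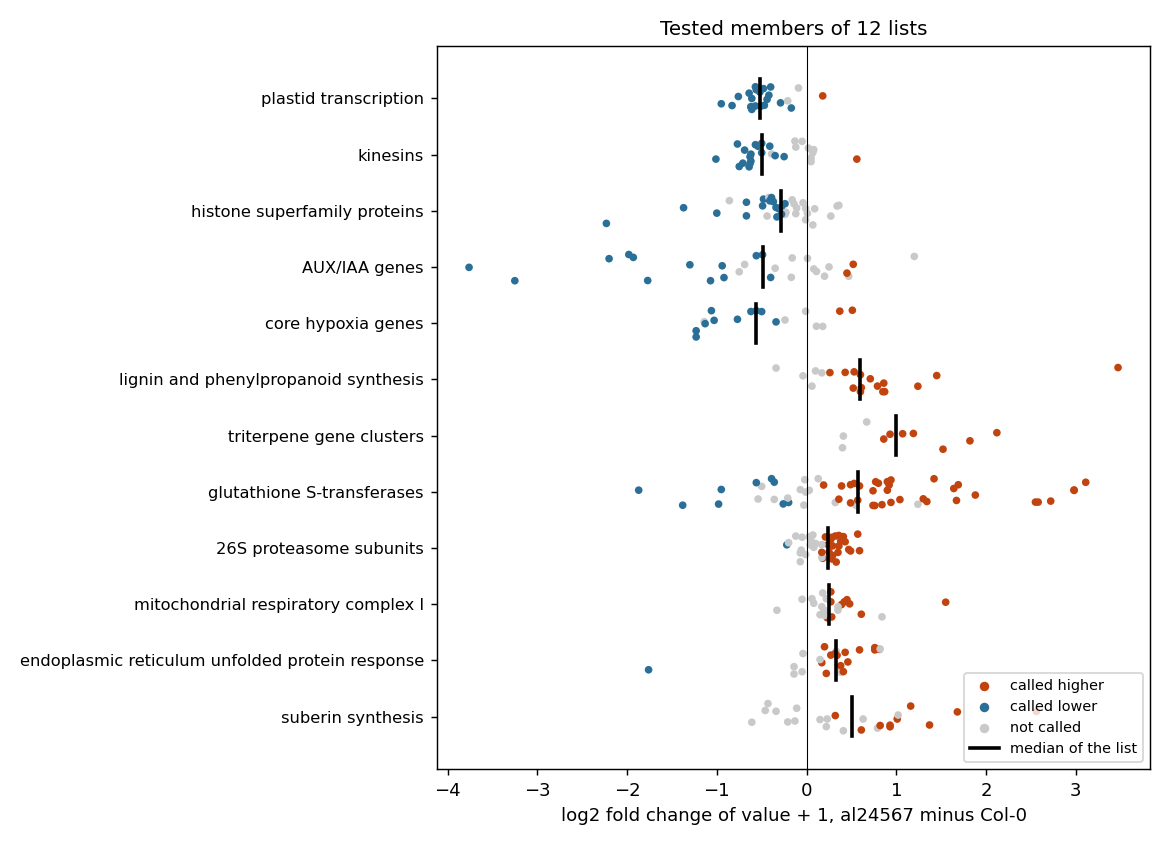
Log2 fold change (al24567 minus Col-0, of value + 1) of each tested member in 12 lists; colour gives the call and a black bar the median of the list. Medians run from -0.56 for core hypoxia genes to 1.0 for the triterpene clusters, and the proteasome and plastid transcription members lie in narrow ranges under 2-fold.

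Enzymes that attach or oxidise small molecules, and the carriers that move the products, had more higher than lower calls in each of the 5 families that follow. Glutathione S-transferases conjugate glutathione to toxic compounds and peroxides: 33 of 55 rose and 9 fell, with 16 of 27 of the tau class and 8 of 11 of the phi class higher. GSTF2 went from 253, 343 and 307 to 2155, 2120 and 2885 (2.98 ± 0.17, limma adjusted p = 2.44e-10) and GSTF6 from 1527, 1984 and 1638 to 7998, 10666 and 11724 (2.55 ± 0.14). Both were lower in ring1a1b than in al24567: GSTF2 stood there at 201 ± 63.3 (ring1a1b minus al24567 -3.60 ± 0.17) and GSTF6 at 947 ± 200 (-3.42 ± 0.14). GSTF6 and its neighbour GSTF7 (2.72 ± 0.14) are close copies and could share reads. GSTU18 (1222, 1166 and 1137 against 560, 618 and 603, -0.98 ± 0.08) and GSTF14 (-1.38 ± 0.13) fell.

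UDP-dependent glycosyltransferases attach sugars to hormones and defence compounds, and 49 of 113 rose while 9 fell. UGT85A2 went from 786, 731 and 784 to 2086, 2053 and 1879 (1.38 ± 0.07). The salicylate glucosyltransferase gene UGT74F2 went from 1265, 1313 and 1312 to 2530, 2726 and 3019 (1.09 ± 0.07), and UGT76B1, whose enzyme acts on isoleucic and salicylic acid, from 216, 280 and 269 to 788, 703 and 737 (1.54 ± 0.12). Of 207 cytochrome P450 genes 78 rose and 23 fell; the CYP81 family had 8 of 13 and the CYP94 family, which oxidises jasmonates and fatty acids, 4 of 6 higher, with none lower in either. The CYP71 family had 13 higher and 5 lower of 38, the CYP86 family 2 and 1 of 9, and the CYP78 family 1 and 1 of 5. CYP71A12, of indole defence metabolism, went from 261, 336 and 286 to 1610, 1696 and 1894 (2.56 ± 0.12, limma adjusted p = 3.26e-11). Neighbours on chromosome 5 fell: CYP71B12 went from 595, 561 and 571 to 83.2, 70.2 and 84.2 (-2.85 ± 0.12) and CYP71B13 from 520, 525 and 494 to 171, 181 and 173 (-1.54 ± 0.10). Of 118 ABC transporter genes 41 rose and 15 fell, with 10 of 14 of subfamily C, which carry glutathione conjugates into the vacuole, higher and none lower. ABCC4 went from 614, 623 and 628 to 1513, 1483 and 1618 (1.30 ± 0.08), and ABCG40, an abscisic acid importer gene, from 118, 139 and 139 to 479, 581 and 464 (1.94 ± 0.13). In subfamily B, 4 of 26 rose and 8 fell. Of 48 BAHD acyltransferase genes 13 rose and 6 fell, PMAT1 among them (1.43 ± 0.11).

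The 26S proteasome degrades ubiquitin-tagged proteins and consists of a 20S core and a regulatory particle. Of 39 tested subunit genes 22 rose and 1 fell (median 0.24), none by 2-fold. Of the genes named for the core 16 of 21 rose and none fell, against 4 rises and 1 fall among 12 named for the regulatory particle. The core subunit gene PBD2 went from 769, 650 and 676 to 965, 1059 and 1125 (0.59 ± 0.08, limma adjusted p = 1.81e-05) and PAD2 from 643, 668 and 631 to 882, 957 and 1053 (0.57 ± 0.08). Both stood near Col-0 in ring1a1b (712 ± 21.3 and 651 ± 39.7). RPN8A of the regulatory particle was the call in the other direction (-0.22 ± 0.07, adjusted p = 0.0179), lost under 4 alternatives besides the stricter threshold. F-box proteins, which choose targets for ubiquitination, are one of the largest plant families; 261 of 653 passed the filter, and of these 8 rose and 45 fell. The share called, 20.3%, was under the background, and the share lower, 17.2%, was close to that of all genes.

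Chaperones that fold secreted proteins in the endoplasmic reticulum are induced by its unfolded protein response. Of 23 genes of that response 14 rose and 1 fell. CRT3, a calreticulin gene, went from 1297, 1557 and 1298 to 2324, 2467 and 2452 (0.81 ± 0.08), and PDIL1-2, a protein disulfide isomerase gene, from 926, 933 and 841 to 1461, 1607 and 1494 (0.76 ± 0.08, limma adjusted p = 7.98e-07). The lumenal chaperone genes BIP1 (0.43) and BIP2 (0.41), which are near-identical, rose. The sensor and regulator genes IRE1A (0.15), BZIP28 (-0.14) and BZIP60 (-0.05) were not called. Without Col-0 replicate 3 the rises were 9.

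In mitochondria, alternative oxidase and the external NAD(P)H dehydrogenases bypass the energy-conserving steps and are induced when the organelle is impaired. Of 18 tested genes of this response 11 rose and none was called lower. NDB2, an external dehydrogenase gene, went from 446, 488 and 400 to 1316, 1238 and 1204 (1.5 ± 0.09, limma adjusted p = 9.37e-10), AOX1A from 730, 821 and 719 to 1267, 1101 and 1238 (0.67 ± 0.08) and the import gene TIM17-1 from 11.5, 14.7 and 15.5 to 49.1, 40.5 and 53.1 (1.71 ± 0.30). NAC017 (0.09), an upstream regulator, was not called, and NAC13 (0.49), which it is known to induce, rose. Nuclear genes of the energy-conserving complex I rose in 10 of 24 cases and fell in none at the threshold, by small amounts: EMB1467 went from 4269, 4276 and 4125 to 6226, 5371 and 6109 (0.48 ± 0.07).

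Of 39 genes that make or remove reactive oxygen, 19 rose and 9 fell. The cytosolic dehydroascorbate reductase gene DHAR1 went from 4875, 4984 and 4671 to 8008, 9287 and 8725 (0.84 ± 0.07), and the glutathione peroxidase gene GPX6 rose by 0.77 ± 0.07. The gene of the thylakoid ascorbate peroxidase, TAPX, fell from 2569, 2638 and 2571 to 1668, 1698 and 1851 (-0.58 ± 0.06, limma adjusted p = 1.21e-06). TL29, another gene of the list, fell by 0.54 ± 0.07. Of 11 iron storage and iron excess genes 6 rose: the ferritin genes FER1 (2900, 3599 and 2756 against 5576, 5080 and 6363, 0.88 ± 0.16), FER2 (0.85), FER3 (0.43 ± 0.10) and FER4 (0.84 ± 0.14), and the iron chelate transporter genes YSL1 (0.60) and YSL3 (1.03 ± 0.08). FER1 stood at 1639, 1818 and 974 in ring1a1b, so the mutants lay on opposite sides of Col-0. Genes of iron deficiency split into 7 higher (4 without Col-0 replicate 3) and 6 lower of 25. Of 20 sulfur starvation genes 9 rose and 3 fell; LSU1 went from 589, 529 and 525 to 929, 1147 and 1047 (0.92 ± 0.12), and the root sulfate uptake gene SULTR1;1 from 54.1, 72.5 and 56.3 to 4.01, 7.48 and 16.3 (-2.77 ± 0.38).

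Cell surface receptors and their peptides had more higher than lower calls. Wall-associated kinases, which bind pectin, had 9 of 22 higher and 1 lower: WAK1 went from 1060, 1504 and 1142 to 3721, 4172 and 4442 (1.75 ± 0.14, limma adjusted p = 1.98e-08) and stood at 524, 660 and 404 in ring1a1b, and WAK2 rose by 1.20 ± 0.08. Of 45 receptor-like proteins 17 rose and 5 fell, 15 of the 17 by at least 2-fold; RLP20 went from 2.14, 10.4 and 5.97 to 72.2, 92.1 and 69.1 (3.63 ± 0.45). Of 59 lectin receptor kinases 20 rose and 10 fell, with 10 higher and 5 lower of 21 of the S-locus type, and 7 higher and 5 lower of 33 of the L type. Calmodulin-like genes, a list that includes the calmodulin genes CAM3 and CAM6, had 10 of 23 higher and 1 lower. Without Col-0 replicate 3 they had 6 higher. RALF peptides (6 of 12 higher, 1 lower) and defensin-like peptides (9 of 29 higher, 3 lower) went the same way. So did the 12 tested DUF26 proteins (4 higher, 1 lower). CLE peptides had 2 higher and 1 lower call among 26, 3 in all. Without Col-0 replicate 3, al24567 replicate 1 or al24567 replicate 3, 1 CLE call was left. RALF23, the gene for a peptide that dampens immune signalling, went from 1335, 1262 and 1171 to 1764, 1804 and 2360 (0.64 ± 0.09).

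Intracellular NLR immune receptors showed the reverse balance. Of 46 tested genes of the coiled-coil type 16 fell and 3 rose (median -0.35), and of 118 of the TIR type 33 fell and 13 rose. AT5G63020 went from 631, 690 and 657 to 359, 350 and 383 (-0.86 ± 0.09, limma adjusted p = 3.97e-07); it did not differ at the threshold from ring1a1b, at 368, 390 and 404 (ring1a1b minus al24567 0.09 ± 0.09). The TIR gene AT4G19530 went from 3061, 2847 and 2825 to 1455, 1621 and 1653 (-0.89 ± 0.07). The helper receptor gene ADR1, on which other NLRs depend, rose from 351, 373 and 398 to 505, 524 and 548 (0.49 ± 0.10). Of the 33 TIR genes that fell 29 were in the longest quintile of genes, where 29 of 78 fell and 4 rose; of the 40 shorter ones 4 fell and 9 rose. Of the coiled-coil genes 8 of 24 in that quintile and 8 of 22 outside it fell. Many NLR genes lie in clusters of similar copies, so reads could be exchanged, and the part of gene length was not tested.

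Among transcription factors, MADS box genes had 21 of 63 lower and 4 higher, 15 of the 21 by at least 2-fold; AGL20, the flowering promoter SOC1, went from 978, 936 and 837 to 262, 230 and 284 (-1.83 ± 0.10), and MAF5, a floral repressor gene, rose from 19.7, 10.7 and 25.3 to 64.1, 85.8 and 83.1 (2.07 ± 0.28). Of 21 MADS box genes in the longest quintile of genes 11 fell and 2 rose, and of the other 42, 10 fell and 2 rose. The part of gene length was not tested. TCP growth regulators had 8 of 21 lower and 2 higher. The 8 falls ranged down to 3 without Col-0 replicate 3 (5 without al24567 replicate 2, and 4 without al24567 replicate 1). Families of NAC (21 of 88 higher, 5 lower), ERF and DREB (26 of 106 higher, 16 lower), bHLH (17 of 125 higher, 31 lower) and MYB factors (21 of 139 higher, 29 lower) stayed within the limits. Of 20 ethylene genes 7 rose and 5 fell, and the genes for the rate-limiting synthase divided: ACS7 went from 10.5, 26.2 and 20.6 to 116, 147 and 124 (2.78 ± 0.35), and ACS4 from 32.4, 30.8 and 65.5 to 4.01, 4.30 and 9.79 (-2.65 ± 0.35, limma adjusted p = 9.77e-06). EFE, of the last step to ethylene, rose by 0.73 ± 0.07. Of 19 strigolactone and karrikin genes 6 fell and 3 rose; D27, of strigolactone synthesis, fell by 1.08 ± 0.18, and the 6 falls were 3 without Col-0 replicate 1 and 2 without al24567 replicate 2. Of 22 nucleolar ribosome biogenesis genes 8 rose and 2 fell (5 rises without al24567 replicate 1), FIB2 from 421, 389 and 427 to 657, 732 and 487 (0.58 ± 0.12).

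Among transporters of water and nitrogen the directions differed. Of 12 plasma membrane aquaporin genes 4 fell and 1 rose, PIP1C from 8177, 7829 and 7867 to 6503, 6029 and 7097 (-0.29 ± 0.07); the falls were 2 without Col-0 replicate 1 or Col-0 replicate 3 and 1 without al24567 replicate 2. Of 13 NPF nitrate and peptide transporter genes 6 rose and 1 fell. PTR3, a stress-induced peptide transporter gene, went from 60.4, 62.3 and 92.6 to 301, 267 and 267 (1.96 ± 0.21). NRT1.5, which loads nitrate into the xylem, fell from 3107, 3577 and 3238 to 2520, 2370 and 2289 (-0.47 ± 0.07, limma adjusted p = 3.27e-05). Of 39 small heat shock and related genes 12 rose and 7 fell; BOB1 rose by 0.52 ± 0.08.

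A few genes went from a clear level to nearly none. Called genes with a mean of at least 20 in one genotype and at most 1 in the other numbered 6 in the direction of loss and 2 in the direction of gain. AT5G42280, for a C1 domain protein, had 358 reads over the Col-0 libraries and 0 over those of al24567, at least 113-fold lower from 3 counts over the group, and values of 317, 362 and 420 in ring1a1b. The methyl esterase genes MES18 (183 reads against 2) and MES8 (84 against 1), the F-box genes AT1G78750 (149 against 2) and AT5G56370 (122 against 2) and the germin-like gene GER2 (93 against 2) were the others. In the direction of gain, the cation exchanger gene CHX2 had 2 reads in Col-0 and 109 in al24567, and AT2G44400, also a C1 domain gene, 3 and 64.

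Calls were spread over all 5 chromosomes. The share called differed little between chromosomes, from 35.4% on chromosome 2 to 37.3% on chromosome 4, where 21.8% of genes were higher and 15.6% lower. Within 1000 kb on either side of AL2, AL4, AL5, AL6 and AL7 the share called was 35%, 33.2%, 35.4%, 37.9% and 36.0%, and around the intact AL1 and AL3 36.2% and 39.3%. Within 100 kb, with 33 to 55 genes tested around each mutated gene, it was 34.0% at AL2, 32.4% at AL4, 28.6% at AL5, 33.3% at AL6 and 27.3% at AL7, each below the 36.3% of all genes. It was 45.6% of 57 genes at AL1 and 25% of 4 genes at AL3. Some of the named genes lie in these windows. RLP34 and UGT76B1 are within 100 kb of AL2, and CYP71B12, CYP71B13 and IAA28 are within 1000 kb of AL4. The part of sequence linked to the mutant alleles in the changes of such genes was not tested. The share rose with level, from 13.2% in the lowest quintile of mean values to 55.4% in the highest, with near-equal directions in each. It was uneven by length: of the shortest quintile of genes 15.5% were higher and 11.7% lower, and of the longest 14.5% and 28.2%. Length quintiles were added after the other values had been seen. Long non-coding RNA genes had 6 higher and 64 lower of 620 tested, against 4139 and 4182 of 22199 protein-coding genes, and of 80 miRNA genes 1 was higher and 7 lower. As no strand is stated, reads of a non-coding RNA and of an overlapping gene cannot be told apart.

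**Figure D4:**
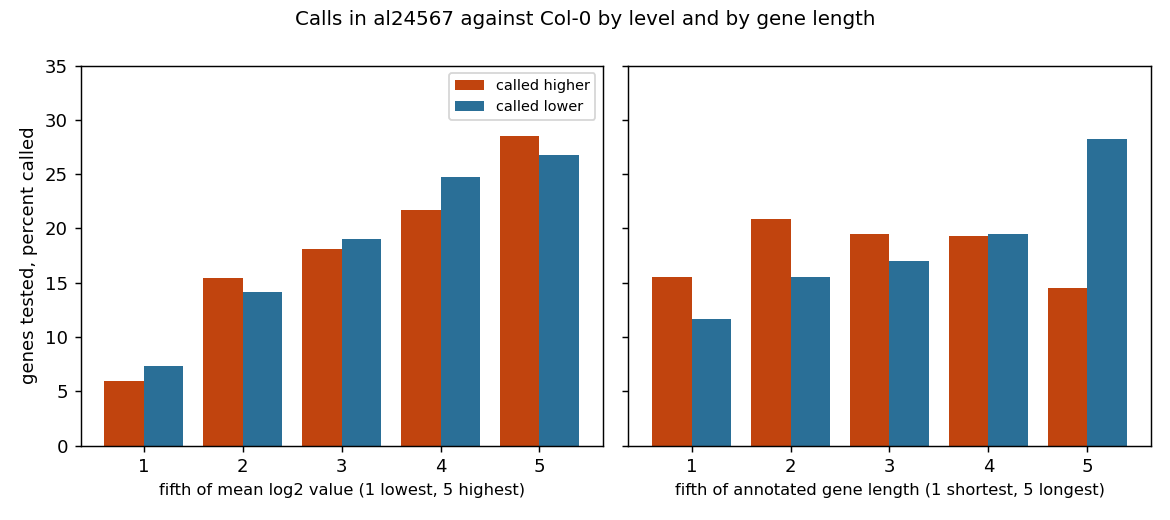
Genes called higher and lower in al24567 (vertical axis, percent of genes tested) by quintile of mean log2 value over 9 libraries (left) and by quintile of annotated gene length (right). Both directions climb with level, to 28.5% and 26.8%, whereas with length the lower share climbs from 11.7% to 28.2%.

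Promoter letters gave a further property that the choice of genes did not use. Windows from 250 bases before to 50 bases after the annotated start of the 22199 tested protein-coding genes were searched on both strands. The W-box, searched as TTGACC or TTGACT, to which WRKY factors bind, was in 32.8% of all windows, in 37.5% of those of genes called higher, in 44.1% of those at least 2-fold higher, and in 31.5% of those at least 2-fold lower. Site II (TGGGCC), frequent in genes of growing cells, was in 17.5% of all, 7.09% of those at least 2-fold higher and 11.7% of those at least 2-fold lower, and the telo box (AAACCCT) in 9.33%, 4.89% and 8.03%. The motif bound by alfalfa Alfin1, searched as GTGGNG or GNGGTG, was in 28.6% of all windows, 29.0% of higher and 29.0% of lower genes. The G-box (CACGTG) was in 8.65% of all, 9.04% of higher and 9.49% of lower, the evening element (AATATCT) in 11.6%, 12.3% and 12.3%, the GCC-box (GCCGCC) in 2.53%, 2.80% and 2.22%, the TATA box (TATAAA) in 51.8%, 55.4% and 49.9%, and the GAGA repeat (GAGAGA) in 29.0%, 25.2% and 29.5%. A match is a description of these letters and not a bound site.

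**Figure D5:**
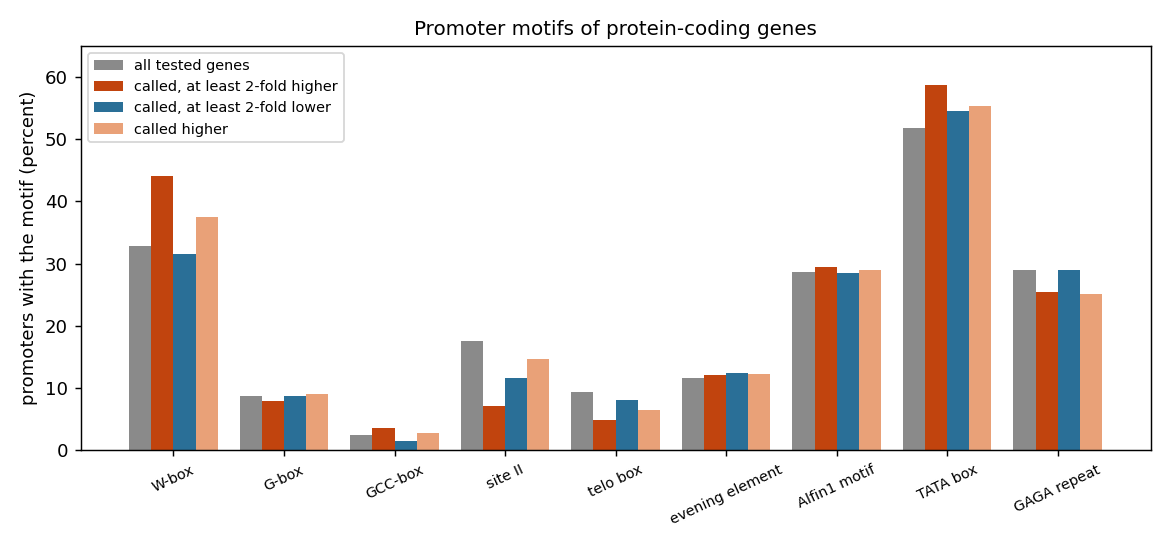
Share of promoter windows (vertical axis, percent) that hold each of 9 motifs, among all tested protein-coding genes, genes called higher, and genes called and at least 2-fold higher or lower. The W-box stands at 44.1% in genes at least 2-fold higher against 32.8% of all, and site II at 7.09% against 17.5%, while the Alfin1 motif bars are level.

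Among lists, W-box letters were frequent in lists with either balance of calls. They were in 15 of 24 suberin promoters (62.5%) and 27 of 45 receptor-like protein promoters (60%), where rises prevailed, and in 28 of 46 promoters of coiled-coil NLR genes (60.9%) and 62 of 118 of TIR NLR genes (52.5%), where falls did. The G-box was in 9 of 23 promoters of the endoplasmic reticulum response (39.1%), the telo box in 10 of 22 and site II in 11 of 22 of the nucleolar list. The Alfin1 motif was in 16 of 27 AUX/IAA promoters (59.3%), where falls prevailed. It was in 6 of 10 triterpene, 6 of 11 iron storage (54.5%) and 10 of 20 phenylpropanoid promoters, where rises did. Other lists with a clear balance were below the 28.6% of all windows. Plastid transcription had the motif in 4 of 23 promoters (17.4%), aminoacyl-tRNA synthetases in 6 of 54 (11.1%) and the proteasome in 7 of 39 (17.9%). Site II was in 18 of 39 proteasome promoters (46.2%) and in none of 67 of class III peroxidases. The 250 bases before the start are shown for the first named gene of 5 of these lists that holds the motif there, from the RefSeq TAIR10.1 genome, read 5′ to 3′ on the strand of the gene, with the motif in capitals. They show where the matched letters lie in genes whose values are given above, or, for FZF, a zinc finger gene of ribosome maturation, 502, 495 and 476 in Col-0 and 572, 624 and 614 in al24567 (0.30 ± 0.08).
ABCG6 (W-box; chr5:4370442-4370691, plus strand): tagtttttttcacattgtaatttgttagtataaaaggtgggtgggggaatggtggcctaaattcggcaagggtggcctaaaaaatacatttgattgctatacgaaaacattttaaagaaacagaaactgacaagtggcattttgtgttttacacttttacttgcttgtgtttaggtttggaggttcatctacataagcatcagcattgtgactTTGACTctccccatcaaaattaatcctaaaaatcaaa
RLP34 (W-box, read as its reverse complement; chr3:3453986-3454235, minus strand): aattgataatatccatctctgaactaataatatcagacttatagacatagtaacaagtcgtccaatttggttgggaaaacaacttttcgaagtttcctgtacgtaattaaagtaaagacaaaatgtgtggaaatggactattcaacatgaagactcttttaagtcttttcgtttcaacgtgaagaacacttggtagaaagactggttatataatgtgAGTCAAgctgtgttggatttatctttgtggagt
PDIL1-2 (G-box; chr1:29126398-29126647, plus strand): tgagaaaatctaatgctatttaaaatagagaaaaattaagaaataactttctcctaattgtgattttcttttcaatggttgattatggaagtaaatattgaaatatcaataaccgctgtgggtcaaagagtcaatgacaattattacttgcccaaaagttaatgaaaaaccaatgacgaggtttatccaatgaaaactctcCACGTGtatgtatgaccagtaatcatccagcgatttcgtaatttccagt
FZF (telo box, read as its reverse complement; chr2:10402935-10403184, minus strand): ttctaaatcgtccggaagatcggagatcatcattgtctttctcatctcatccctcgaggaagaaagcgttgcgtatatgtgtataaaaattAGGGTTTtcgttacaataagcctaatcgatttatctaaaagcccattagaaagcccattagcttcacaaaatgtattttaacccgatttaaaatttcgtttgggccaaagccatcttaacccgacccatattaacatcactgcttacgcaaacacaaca
IAA2 (Alfin1 motif, read as its reverse complement; chr3:8182096-8182345, minus strand): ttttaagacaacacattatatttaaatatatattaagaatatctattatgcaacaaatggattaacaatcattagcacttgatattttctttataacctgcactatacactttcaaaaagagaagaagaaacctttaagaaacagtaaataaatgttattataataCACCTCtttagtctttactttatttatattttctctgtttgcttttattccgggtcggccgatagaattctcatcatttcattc

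The W-box of ABCG6 begins 37 bases before the annotated start and that of RLP34 33 bases before it; RLP34 had values of 156, 265 and 144 in Col-0 and 565, 572 and 698 in al24567 (1.74 ± 0.19). The G-box of PDIL1-2 begins 49 bases before the start, the telo box of FZF 159 and the Alfin1 motif of IAA2 84. IAA2 fell, as described with the auxin genes, and the other 4 rose.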

How the data were processed

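Total RNA of seedlings was read from both ends on a NovaSeq sequencer, per the labels' protocols, although the labels give the molecule as genomic DNA and the library source as genomic. Per the submitters' processing notes, bcl2fastq, HISAT2, edgeR and the TAIR10 build were used; versions, counting tool, annotation and strandedness are not given in the sources used here. The unit is a signal: the deposited values are edgeR counts adjusted to a common library size, which was read from the values: inverting that adjustment gave whole reads for 100% of 214326 values (tolerance 0.01 reads or a relative 1e-05). All 32548 gene identifiers matched the TAIR10.1 annotation.

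Genes that reached a value of 1 in 3 libraries or more were tested with limma-trend (limma 3.58.1, R 4.3.3) on log2(value + 1), one mean per genotype over all 9 libraries with 6 residual degrees of freedom, with calls made where the Benjamini-Hochberg p was below 0.05. Replicate numbers did not pair the libraries (correlations of deviations 0.00983, 0.0126 and 0.00572), so no block was used.

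Families were matched by symbols and annotated names and processes by gene names; 737 of 836 list names were matched and wrong matches were removed by name alone. The lists were chosen with earlier results of these data known, and no set test was made. A list was described with at least 8 tested members and a share higher or lower at least 1.5 times that of all genes, or a share called at most 0.6 times it. Named genes were up to 4 called members with the smallest p in the direction of the larger count and up to 2 in the other, with a mean of at least 20 in a genotype; lists of 10 or fewer in full; the ALFIN-like genes; and switched genes. Other members are named by their log2 fold change alone and were chosen after their values were seen. Gene families grouped by name within a list were also chosen then.

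The alternatives comprised no filter, a filter at 20 in 3 libraries, a pseudocount of 0.1, equal totals, only Col-0 and al24567, replicate number as a block, no trend, an adjusted p below 0.01, each of the 6 libraries left out, and edgeR 4.0.16 and DESeq2 1.42.0 on the recovered counts. Other steps used Python 3.11.15 (pandas 2.3.3, numpy 2.4.6), and plots matplotlib 3.10.9.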

Additional observations from a re-analysis of the deposited data

How the results depend on the processing

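Genes called numbered 8432 of 23207. The count was 7935 by DESeq2, 8372 by edgeR and 8352 with equal totals, which moved the median of all genes by -0.04 and the share of calls that were higher from 49.4% to 43.8%. With replicate number as a block (replicate block), genes called numbered 8574. Leaving out a library gave 6816 to 7882 calls. No named gene changed direction under an alternative where it was called in the main fit or in that alternative. Changes of sign in genes called in neither were not counted. List medians were compared under equal totals, edgeR and DESeq2 only. The 1 median to change sign was that of the carotenoid genes, with equal totals. Of the values tracked for named genes, 116 lost and 5 gained a call under an alternative. Of the genes in the lowest level quintile 13.2% were called, against 55.4% in the highest; the part of read depth in this was not tested.

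Counts that moved by more than 1.5 times were as follows, with the reported count in parentheses. A stricter threshold in the same fit cannot call more genes, by construction. The cause of the other moves was not tested. By DESeq2, lower TCP factors were 4 (8) and lower strigolactone and karrikin genes 3 (6). With no trend in the prior variance, called CLE peptides were 1 (3), lower TCP factors 4, lower aquaporins 1 (4), lower strigolactone genes 3, higher iron deficiency genes 4 (7) and higher sulfur starvation genes 5 (9). With only Col-0 and al24567, lower TCP factors were 3, lower aquaporins 2 and lower strigolactone genes 3. With a minimum of 20, called CLE peptides were 1. At an adjusted p below 0.01, genes called lower were 2838 (4269), called pentatricopeptide repeat genes 19 (39), called F-box genes 27 (53), higher calmodulin-like genes 5 (10), called CLE peptides 0, lower MADS box factors 11 (21), lower TCP factors 1, lower aquaporins 1, lower strigolactone genes 2 and higher nucleolar genes 5 (8). Leaving out a library gave ranges of 6 to 11 for higher calmodulin-like genes, 1 to 3 for called CLE peptides, 3 to 11 for lower TCP factors, 1 to 4 for lower aquaporins, 2 to 6 for lower strigolactone genes, 4 to 7 for higher iron deficiency genes, 9 to 14 for higher genes of the endoplasmic reticulum response and 5 to 8 for higher nucleolar genes. The other 939 list and total counts stayed within 1.5 times.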
